A study of Rattus norvegicus with 6 samples.

Results

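The genes described here encode collagen chains, laminin chains, the nidogens and agrin, the building blocks of basement membranes and of the collagen matrix around them. They were taken by symbol from the deposited gene table. A row was a member if its biotype was protein-coding and its symbol had the form of a collagen chain (Col, number, a, number) or a laminin chain (Lama, Lamb or Lamc with a number), or was Nid1, Nid2, Hspg2 or Agrn. This gave 56 of 33350 gene models, with 55 symbols, since Col23a1 has 2 models. Models for Col4a3, Col21a1, Lama3, Lamb4 and a symbol Hspg2 were not analysed here.

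The study sequenced RNA of rat cells labelled PC12 in 6 libraries. PC12 is a line from an adrenal pheochromocytoma, a tumour of chromaffin cells. In the 3 libraries called EC the cells had received exosomes, small secreted vesicles, from control endothelial cells. In the 3 called EN the exosomes came from endothelial cells with high expression of NTN1, the secreted guidance protein netrin-1. All 6 libraries thus carry exosome treatment, and no untreated library enters the comparison; dose, time and the origin of the endothelial cells are not stated in the labels. Whether replicates were separate cultures is not stated either, so each p-value measures only how these samples spread, and that spread may be technical.

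Values are FPKM, reads scaled to gene length and library size, and the reads worked back from them came to 15296193 to 19626012 per library. Markers of the labelled cell type were mostly near 0. Of 14 chromaffin markers, 3 had a mean of at least 1 FPKM, namely the granule protein gene Scg2 (63.9 FPKM), the monoamine transporter gene Slc18a2 (4.39) and the tyrosine hydroxylase gene Th (1.47), while Pnmt and Hand2, among others, had 0 reads. The libraries are therefore called by their label only.

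A basement membrane is a thin sheet of extracellular matrix on the surface of epithelia, endothelia, muscle and the Schwann cells of peripheral nerve. Laminins, each a trimer of an alpha, a beta and a gamma chain, assemble at the cell surface through integrins and dystroglycan, and type IV collagen forms a network beside them, which nidogens, perlecan and agrin connect. Fibrillar collagens form the fibres of the surrounding stroma, and type VI and type XII collagens sit between these fibres and the basement membrane.

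The members held 0.172% to 0.206% of the summed FPKM of a library. A mean of at least 1 FPKM over the 6 libraries was reached by 21 members, at least 10 FPKM by 16 and at least 100 FPKM by 3. These 3 were the type VI chains Col6a2 and Col6a1 and the type V chain Col5a2. The next in order were the laminin gamma chain Lamc1, the type XII chain Col12a1, the type VIII chain Col8a1 and the laminin alpha chain Lama4. Members under the minimum numbered 35, and 4 of these models had 0 reads in every library.

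**Figure D1:**
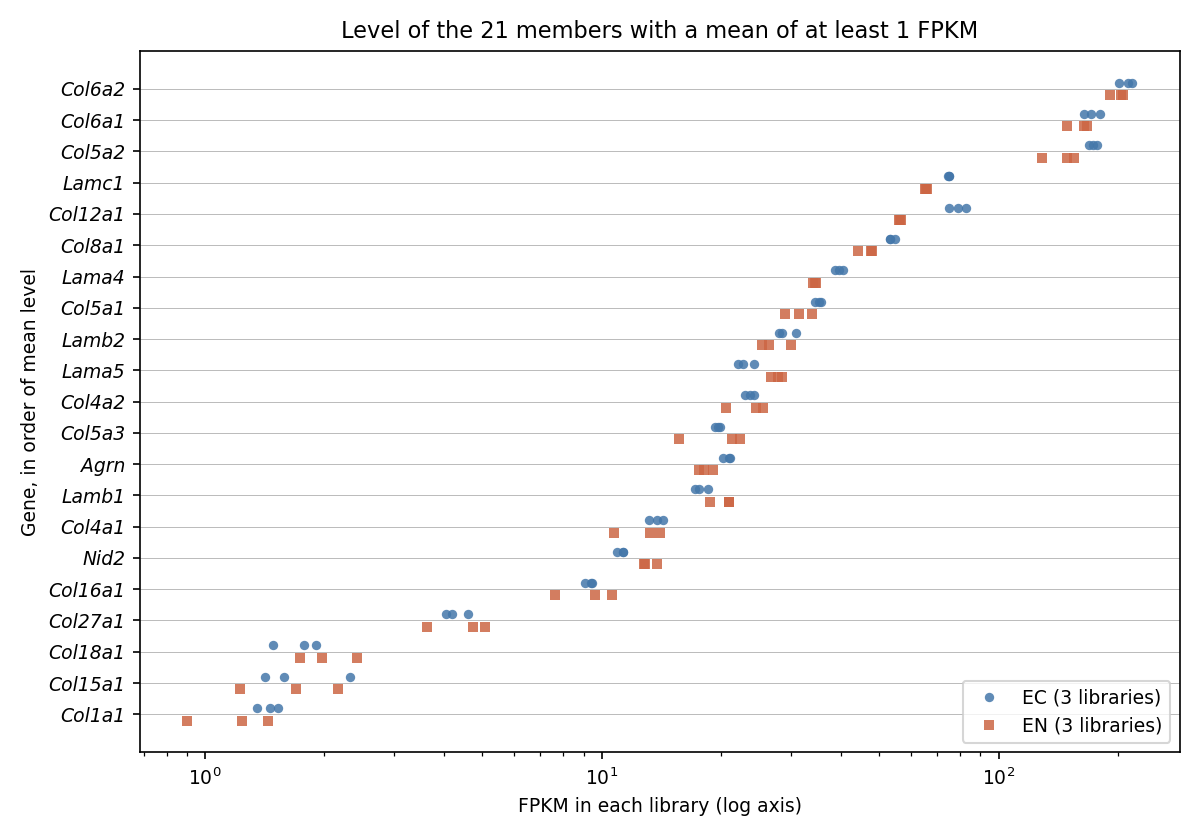
FPKM (horizontal log axis) of the 21 members with a mean of at least 1 FPKM, in order of mean level, with a circle for each of the 3 EC libraries and a square for each of the 3 EN libraries. The means over the 6 libraries run from about 1.32 FPKM for Col1a1 to over 200 for Col6a2. The squares lie left of the circles without overlap for Col5a2, Lamc1, Col12a1, Col8a1, Lama4, Col5a1 and Agrn.

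EN was compared with EC to see how transcripts of the recipient cells differed when the donor endothelial cells had high netrin-1. Among the 21 members tested, 5 were lower in EN (Col12a1, Col5a2, Col8a1, Lama4 and Lamc1), 2 were higher (Lama5 and Nid2) and 14 did not pass (limma on log2(FPKM + 1), Benjamini-Hochberg adjusted p under 0.05 over 12198 genes). Over all 12198 genes tested, 14.4% were called, 7.14% as lower and 7.24% as higher. The corresponding shares of the members were 33.3%, 23.8% and 9.52%. The members' median log2 change was -0.093, with 16 of 21 values below 0, against a median of -0.003 over all genes tested. The 3 libraries of each group did not overlap for 7 members that were lower in EN and 3 that were higher, where the shares over all genes were 19.4% and 18.6%. On the TPM scale the split of calls was 2 higher and 3 lower. Bulk RNA cannot tell fewer cells of a type from less RNA per cell.

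With 1 library left out, the sizes of the 7 changes moved little while most calls were lost. The log2 change of Col12a1 stayed between -0.51 and -0.44, that of Lamc1 between -0.19 and -0.18, that of Lama4 between -0.22 and -0.18 and that of Lama5 between 0.23 and 0.29. Col5a2 had the widest range, -0.32 to -0.19, with -0.22 to -0.17 for Col8a1 and 0.18 to 0.23 for Nid2. With EC replicate 2, EC replicate 3, EN replicate 1 and EN replicate 2 left out in turn, Col12a1 was the 1 member that still passed. The share of all genes called dropped in the same 4 fits, to 2.85%, 3.36%, 3.67% and 2.83%, beside 14.4% with all libraries. Without EC replicate 1, 5 members passed, with Col5a2 and Nid2 lost, and without EN replicate 3 the same 7 passed as with all libraries.

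**Figure D2:**
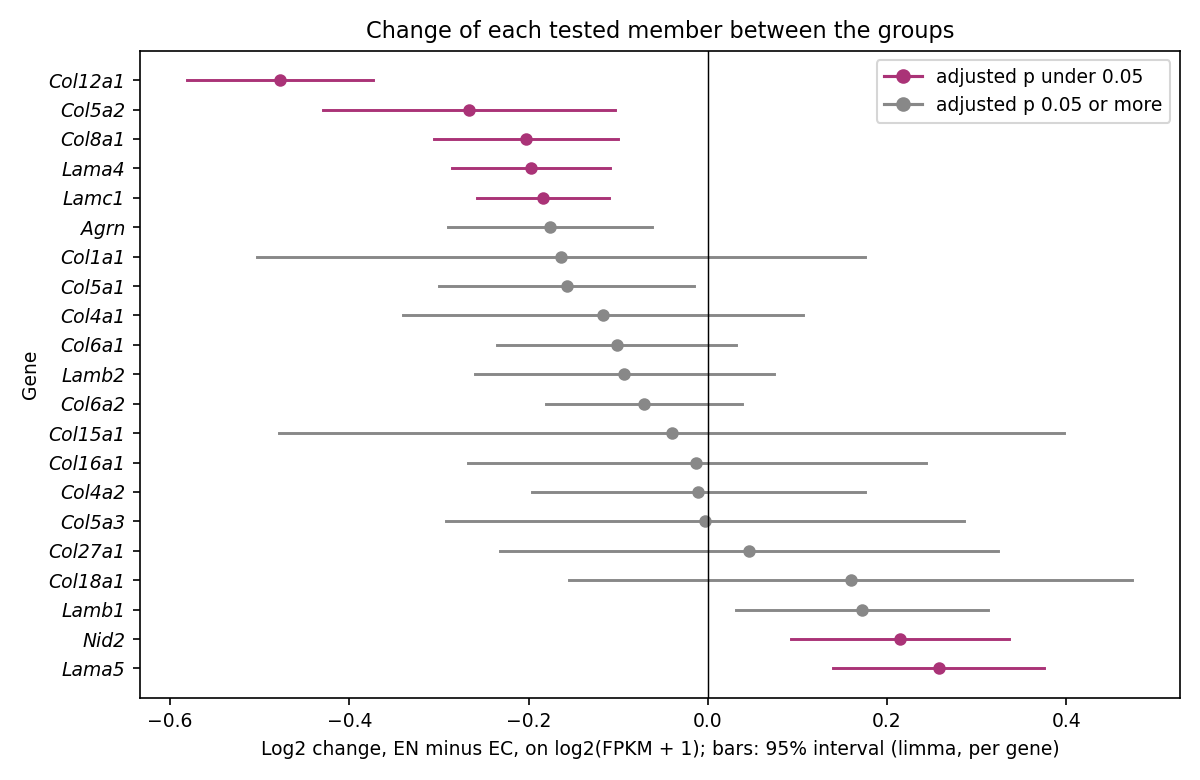
Log2 change from EC to EN on the log2(FPKM + 1) scale (horizontal axis) of the 21 tested members, with the 95% interval of each gene from limma as a bar and members with an adjusted p under 0.05 in purple. Col12a1 stands lowest at -0.48, Col5a2, Col8a1, Lama4 and Lamc1 lie between -0.27 and -0.18, and Nid2 and Lama5 lie at 0.21 and 0.26.

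The laminin chains with reads above the minimum were Lama4, Lama5, Lamb1, Lamb2 and Lamc1. Lama4, a short alpha chain found in the basement membranes of vessels and nerve, lies at chr20:44060731-44209614 on the plus strand (Rnor_6.0). Its level was 39.6, 38.6 and 40.6 FPKM in EC and 34.7, 34.0 and 34.5 in EN. The EN libraries lay below all EC libraries and close together, and the log2 change was -0.20 (SE 0.0375, adjusted p = 0.021 by limma). A model on the other strand, Fam229b, with a mean of 4.63 FPKM, overlaps Lama4, and whether reads were counted by strand is not given in the sources used here.

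Lama5, the long alpha chain of many adult basement membranes, lies at chr3:175553045-175601127 on the minus strand. It moved the other way, from 24.1, 22.1 and 22.7 FPKM in EC to 28.4, 27.8 and 26.7 in EN. The lowest EN library was above the highest EC library, with a 1.20-fold ratio of means, and the log2 change was 0.26 (SE 0.0496, adjusted p = 0.0215 by limma).

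The ratio of Lama5 to Lama4 within a library does not depend on library scaling. It was 0.610, 0.571 and 0.559 in EC and 0.820, 0.818 and 0.773 in EN. Lama4 exceeded Lama5 in every library, by a smaller margin in EN, and the log2 difference of the ratio was 0.47. An exact two-sided permutation test gave p = 0.1, the smallest that 3 against 3 libraries can give. The value was 0.1 after adjustment over the 3 ratios tested. Since Lama4 was lower and Lama5 higher in EN, each without overlap, the ratio had to separate the groups and give this p-value. The test therefore adds nothing to the calls of these genes.

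RefSeq holds a promoter window for 46 of the 55 symbols on the GRCr8 assembly, another build than that of the deposited table, and none was printed for Col12a1, Col1a1, Col6a2, Lamb2 and Nid2 among the tested members. The stretches of 250 bases before the start of the 2 alpha chain genes are shown because these genes were called in opposite directions. The letters of 4 motifs were searched on both strands and are in capitals where found. These motifs are the GC box (GGGCGG, which reads CCGCCC on the other strand), the TATA motif (letters TATAAA), the CCAAT motif named by its own letters, and the AP-1 motif (spelled TGANTCA, where N is any base).
Lama4: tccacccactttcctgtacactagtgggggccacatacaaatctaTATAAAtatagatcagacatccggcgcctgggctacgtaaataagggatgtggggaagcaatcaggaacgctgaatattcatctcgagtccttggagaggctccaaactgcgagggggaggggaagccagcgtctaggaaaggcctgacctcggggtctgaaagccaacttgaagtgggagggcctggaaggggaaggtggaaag
Lama5: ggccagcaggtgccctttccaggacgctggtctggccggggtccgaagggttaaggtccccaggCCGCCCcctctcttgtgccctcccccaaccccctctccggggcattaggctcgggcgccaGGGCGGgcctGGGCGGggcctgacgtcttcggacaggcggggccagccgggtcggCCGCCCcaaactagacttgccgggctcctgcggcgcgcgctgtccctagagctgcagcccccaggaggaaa
The Lama4 stretch is chr20:43946648-43946897 on the plus strand and the Lama5 stretch is chr3:187695975-187696224 on the minus strand (GRCr8). The Lama5 stretch is 72.8% G or C and holds 4 GC boxes. The Lama4 stretch is 53.2% G or C and holds no GC box and 1 TATA motif, in the part farthest from the start. Of the 5 called members with a window, 3 hold a GC box. Besides Lama5 these are Lamc1 and Col8a1, with 5 and 4, both called lower like Lama4. Col5a2, also called lower, holds none. Over all 33469 windows, 30.5% hold a GC box and 12.9% a TATA motif in these 250 bases, and the median content of G or C is 51.2%. Among the 16 tested members with a window, 11 hold a GC box (68.8%), 1 holds a TATA motif, 3 hold a CCAAT motif (18.8%, against 34.0% of all windows) and 1 holds an AP-1 motif (6.25%, against 6.34%). The set of all windows was not restricted to genes tested here, and the windows of Col4a1 and Col4a2, counted separately, overlap. A match in letters is a description and shows no binding.

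Lamc1, the gamma chain of most laminins, was the highest laminin gene, at chr13:70656727-70783515 on the minus strand. It was at 74.8, 75.2 and 74.4 FPKM in EC and at 65.3, 66.1 and 65.7 in EN. Both groups were narrow and did not overlap, and the log2 change was -0.18 (SE 0.0311, adjusted p = 0.0166 by limma).

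The beta chain Lamb2, which replaces Lamb1 in laminins of the synapse and the glomerulus, was at 30.9, 28.0 and 28.4 FPKM in EC and at 29.9, 26.4 and 25.4 in EN. These ranges overlap, with a log2 change of -0.09 (95% interval -0.26 to 0.07, limma adjusted p = 0.40). Lamb1, the more widespread beta chain, averaged 17.8 ± 0.681 FPKM in EC and 20.2 ± 1.29 in EN (mean ± SD of 3 libraries), with no overlap and a log2 change of 0.17 that did not pass (limma adjusted p = 0.0959). Of 13 alternatives besides leaving out a library it passed in 1, limma voom on the reads, and their adjusted p ran from 0.033 to 0.162. The ratio of Lamb2 to Lamb1 was 1.75, 1.63 and 1.53 in EC and 1.43, 1.42 and 1.21 in EN, a log2 difference of -0.28 without overlap (exact two-sided permutation p = 0.1, adjusted 0.1).

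**Figure D3:**
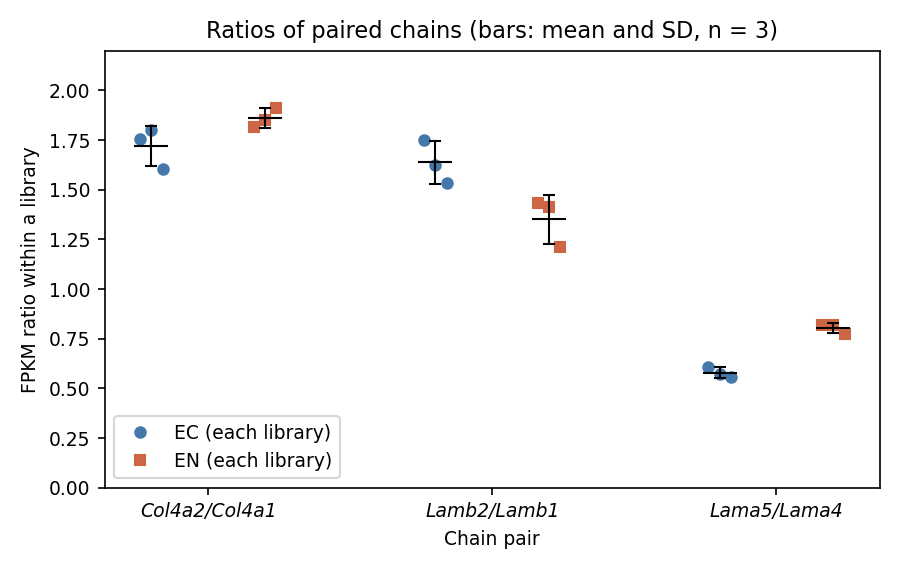
Ratio of FPKM within each library (vertical axis, from 0) for 3 pairs of chains, with circles for EC, squares for EN, and black bars for the mean and SD of 3 libraries. The means in EC and EN were 0.580 and 0.804 for Lama5/Lama4, 1.64 and 1.35 for Lamb2/Lamb1, and 1.72 and 1.86 for Col4a2/Col4a1, each without overlap between the groups.

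The remaining laminin chains were low. The muscle and Schwann cell alpha chain Lama2 averaged 0.753 ± 0.109 FPKM in EC and 0.564 ± 0.0558 in EN (mean ± SD of 3 libraries). It was under the minimum and lay lower in EN without overlap (limma adjusted p = 0.298 without the expression minimum). Lamb3, a beta chain of epithelial laminin, averaged 0.182 ± 0.0532 FPKM in EC and 0.327 ± 0.0772 in EN. Lama1 had 1 read and Lamc3 had 4 over the 6 libraries.

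Type IV collagen, the network-forming collagen of basement membranes, was represented by Col4a1 and Col4a2, whose chains join in the same trimer. Col4a2 was at 24.1, 23.7 and 23.0 FPKM in EC and at 25.4, 24.5 and 20.6 in EN. Col4a1 was at 13.8, 13.2 and 14.3 FPKM in EC and at 14.0, 13.2 and 10.8 in EN. In both genes EN replicate 3 was the lowest of the 6 libraries and the other EN libraries lay within or above the EC range. The log2 changes were -0.01 (95% interval -0.20 to 0.18, limma adjusted p = 0.942) for Col4a2 and -0.12 (-0.34 to 0.11, adjusted p = 0.428) for Col4a1.

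The ratio of Col4a2 to Col4a1 was 1.75, 1.80 and 1.61 in EC and 1.82, 1.85 and 1.91 in EN. The groups did not overlap, but the gap was small, a log2 difference of 0.115 (exact two-sided permutation p = 0.1, adjusted 0.1). The alternative type IV chains Col4a4, Col4a5 and Col4a6, which belong to other networks such as that of the kidney filter, had means of 0.00993 to 0.0260 FPKM.

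Col4a1 and Col4a2 are a head-to-head pair known to share a promoter in mammals, and their starts in RefSeq lie close together. The 76 bases between them are shown for that reason, on the strand of Col4a1, with the GC box in capitals.
between Col4a2 and Col4a1: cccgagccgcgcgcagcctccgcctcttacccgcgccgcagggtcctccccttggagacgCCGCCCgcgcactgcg
The stretch is chr16:84885521-84885596 (GRCr8) and 78.9% G or C, with 1 GC box and none of the other motifs. In the deposited table, on Rnor_6.0, the models of this pair also point away from each other, but with 83600 bases between them (Col4a2 at chr16:83387364-83438561 and Col4a1 at chr16:83522162-83632153).

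Of the linker proteins, Nid2, a nidogen that bridges laminin and type IV collagen, was higher in EN. Nid2 lies at chr15:4894213-4951917 on the minus strand and was at 11.3, 11.3 and 10.9 FPKM in EC and at 13.8, 12.8 and 12.8 in EN. Its lowest EN library was above its highest EC library, and the log2 change was 0.21 (SE 0.0515, adjusted p = 0.0381 by limma). The call was lost in 5 of 6 fits with a library left out (limma adjusted p = 0.0635 to 0.118) and kept without EN replicate 3 (0.0477). It was also lost with no expression minimum (0.0645), with the replicate block (0.0515) and with no variance trend (0.0502). The other nidogen gene, Nid1, averaged 0.140 ± 0.0643 FPKM in EC and 0.1495 ± 0.0258 in EN, so that Nid2 made up nearly the whole nidogen signal.

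Agrn, the heparan sulfate proteoglycan that clusters acetylcholine receptors at the nerve-muscle synapse, was lower in EN without overlap, at 20.16, 20.98 and 20.99 FPKM against 18.1, 19.1 and 17.5. Its log2 change of -0.18 (SE 0.0482) just missed the threshold (limma adjusted p = 0.0533), and it passed in 4 of 13 alternatives (adjusted p from 0.0386 to 0.0846) and in none of the 6 fits with a library left out (0.068 to 0.161). A model outside the symbol rule, described in the table as the perlecan protein, averaged 5.69 ± 0.476 FPKM in EC and 5.28 ± 0.0745 in EN.

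Col12a1 showed the largest change of the 21 tested members. It encodes a fibril-associated collagen that bridges collagen fibrils to other matrix, and lies at chr8:87040799-87158368 on the minus strand, with 71309 reads over the 6 libraries. It was at 75.0, 79.0 and 82.8 FPKM in EC and at 56.0, 56.8 and 56.4 in EN. The EN libraries were nearly equal and lay well below the lowest EC library, with a 0.714-fold ratio of means, and the log2 change was -0.48 (SE 0.0438, adjusted p = 0.00281 by limma). With each library left out in turn the adjusted p was at most 0.0229.

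Other fibril-associated chains were lower in level. Col16a1 averaged 9.30 ± 0.197 FPKM in EC and 9.29 ± 1.53 in EN, with a log2 change of -0.01 (95% interval -0.27 to 0.24, limma adjusted p = 0.949). The cartilage-type chain Col9a3 was under the minimum, with 126 reads in all, and its values of 0.350, 0.390 and 0.365 FPKM in EC did not overlap those of 1.06, 0.812 and 0.592 in EN. Without the expression minimum, Col9a3 had the smallest adjusted p of the 35 members under it (limma adjusted p = 0.0918), so none of them passed. In that fit 5 of the 31 with a read (16.1%) had an unadjusted limma p under 0.05, against 5.29% of the 8297 models under the minimum, which were not matched on read number. Of the 35 members under the minimum, 6 lay higher and 3 lower in EN without overlap. The share over all models under the minimum was not worked out. Col9a1 and Col9a2, the partners of Col9a3, were at 0.0619 and 0.451 FPKM in EC and at 0.0693 and 0.452 in EN.

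Among the fibrillar collagens, the type V genes were far above those of types I, II and III. Type V collagen usually starts and limits the growth of type I fibrils, and its commonest trimer holds Col5a1 and Col5a2 chains. Col5a2, at chr9:52092511-52238564 on the minus strand, was at 169.4, 172.8 and 177.4 FPKM in EC and at 155.1, 148.7 and 128.9 in EN. The groups did not overlap, and EN replicate 3 lay apart from the other EN libraries. The log2 change was -0.27 (SE 0.0687, adjusted p = 0.0463 by limma). This call was lost without any 1 library other than EN replicate 3 and in 6 of 13 other alternatives. These were no expression minimum (adjusted p = 0.0985), the TPM scale (0.0772), quantile normalization (0.0649), the replicate block (0.064), no variance trend (0.0823) and the length trend removed (0.0641).

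Col5a1 was at 35.6, 34.4 and 35.3 FPKM in EC and at 33.9, 31.4 and 29.0 in EN. It too was lower without overlap but did not pass, with a log2 change of -0.16 (95% interval -0.30 to -0.02, limma adjusted p = 0.122). Col5a3, the least common type V chain, was at 19.9, 19.6 and 19.3 FPKM in EC and at 22.4, 21.3 and 15.6 in EN, so that the EN libraries lay on both sides of EC, with a log2 change of -0.003 (limma adjusted p = 0.99). A model on its other strand, 7SK, had a mean of 0.403 FPKM. Col27a1, a fibrillar collagen of cartilage, averaged 4.28 ± 0.283 FPKM in EC and 4.48 ± 0.762 in EN, a log2 change of 0.05 (limma adjusted p = 0.82).

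The type I chains were not in proportion. Col1a1 was at 1.53, 1.45 and 1.35 FPKM in EC and at 1.24, 1.44 and 0.902 in EN, with 772 reads in all and a log2 change of -0.16 (limma adjusted p = 0.468). Col1a2, whose chain joins that of Col1a1 in the usual type I trimer, had 10 reads over the 6 libraries. The ratio of Col1a2 to Col1a1 was 0.0095 to 0.0205 in EC and 0 to 0.0310 in EN, and was not tested because Col1a2 had 0 reads in EN replicate 3. Col3a1, the type III chain of soft tissue, had 85 reads. It was at 0.259, 0.181 and 0.365 FPKM in EC and at 0.144, 0.105 and 0.0380 in EN, without overlap (limma adjusted p = 0.152 without the expression minimum). The cartilage chains Col2a1, Col11a1 and Col11a2 had group means of 0.0903 to 0.2997 FPKM, and Col24a1 had 6 reads.

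The type VI genes were the highest pair. Type VI collagen forms beaded microfilaments next to basement membranes, and its trimer holds Col6a1, Col6a2 and a further chain, most often Col6a3. Col6a2 was at 217.5, 212.5 and 201.2 FPKM in EC and at 206.2, 203.5 and 190.9 in EN. Col6a1 was at 180.1, 170.9 and 164.1 FPKM in EC and at 167.3, 163.8 and 149.0 in EN. The groups overlapped in both genes. The log2 changes were -0.07 (95% interval -0.18 to 0.04, limma adjusted p = 0.326) and -0.10 (-0.24 to 0.03, adjusted p = 0.258).

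The further chain was not found at a like level. The table lists Col6a3 as a processed transcript, outside the rule, at 0.816 ± 0.0947 FPKM in EC and 0.816 ± 0.0525 in EN. The alternatives to it, the chains Col6a4 and Col6a6, had 2 and 12 reads and Col6a5 had 0, which over all libraries together allows up to 0.00376 FPKM (a limit of 3 reads, for counting error).

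Col8a1, a short-chain network collagen of vessel walls and the cornea, was lower in EN. It lies at chr11:44877859-45007891 on the plus strand and was at 53.2, 53.2 and 54.7 FPKM in EC and at 47.6, 48.0 and 44.1 in EN. No EN library reached the EC range, and the log2 change was -0.20 (SE 0.0437, adjusted p = 0.028 by limma; 0.0532 on the TPM scale and 0.0594 with no variance trend). Its partner gene Col8a2 had 7 reads over the 6 libraries. The chain of epidermal anchoring fibrils, Col7a1, averaged 0.341 ± 0.0645 FPKM in EC and 0.546 ± 0.215 in EN, with overlap.

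The multiplexins Col15a1 and Col18a1, collagens with heparan or chondroitin sulfate chains in basement membranes, were just above the minimum. Col18a1, whose end fragment is endostatin, averaged 1.72 ± 0.217 FPKM in EC and 2.04 ± 0.347 in EN, a log2 change of 0.16 (95% interval -0.16 to 0.47, limma adjusted p = 0.445). Col15a1 averaged 1.77 ± 0.479 FPKM in EC and 1.70 ± 0.471 in EN, a log2 change of -0.04 (-0.48 to 0.40, adjusted p = 0.902). A further model described as collagen XV-like was at 2.22 and 2.34 FPKM, so reads of Col15a1 may be divided between them.

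Of the transmembrane collagens none reached the minimum. Col17a1, the hemidesmosomal collagen, came nearest, with 527 reads and values of 0.772, 0.871 and 0.660 FPKM in EC and 1.12, 1.00 and 1.19 in EN. These did not overlap, and the limma adjusted p without the expression minimum was 0.169. Col13a1 had 3 reads, the 2 models of Col23a1 had 1 and 0, and Col25a1 had 0, as had the fibril-associated Col19a1. Further members under the minimum, each below 0.5 FPKM in both groups, were Col10a1, Col14a1, Col20a1, Col22a1, Col26a1 and Col28a1. The values of Col10a1 carry the reservation that the model Nt5dc1 overlaps it on the other strand, at 11.4 FPKM.

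EN replicate 3 was the lowest of the 6 libraries for 12 of the 14 tested collagen genes. It was the lowest for 2 of the 7 tested laminin, nidogen and agrin genes, and for 15.9% of all tested genes. The summed FPKM of the members was 1020 ± 9.97 in EC, against 967.4, 942.7 and 870.5 in EN replicates 1 to 3. Without this library the members' median log2 change was -0.038 in place of -0.093. The replicates have no order, and what sets this library apart in collagen transcripts was not tested.

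**Figure D4:**
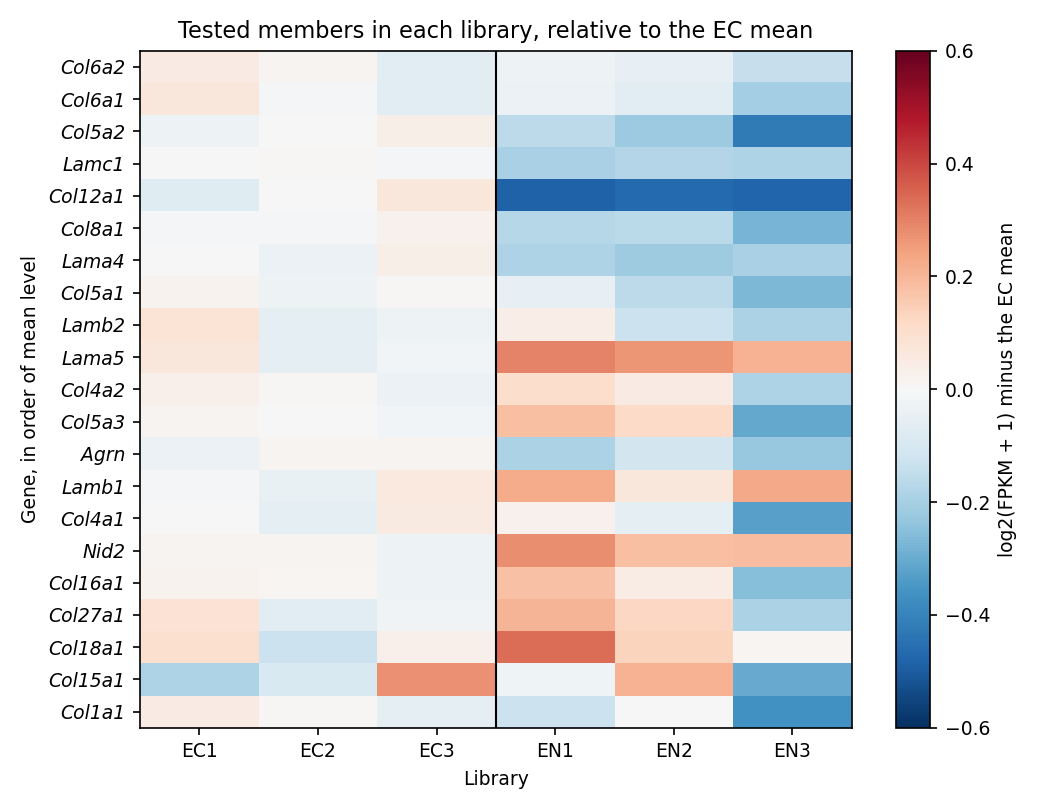
Each cell is log2(FPKM + 1) of a tested member (rows, in order of mean level) in a library (columns) minus its mean over the 3 EC libraries, with blue below and red above. Col12a1, Lamc1 and Lama4 are evenly blue across the EN libraries and Lama5 and Nid2 evenly red, while Col4a1, Col4a2, Col5a3, Col16a1 and Col27a1 are blue in EN replicate 3 and not in EN replicate 1.

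Genes that act on collagens and laminins were counted from lists of their partners, 61 of which were tested, with 9 higher and 12 lower in EN. Over all 12198 genes tested, 7.24% were called higher and 7.14% lower, and the counts of each list below stand beside these shares. No test compared the lists with them. Of 19 tested genes for the folding and modification of collagen in the endoplasmic reticulum, 2 were higher, 3 lower (Plod2, Fkbp14 and P3h2) and 14 did not pass, with a median log2 change of 0.00. Fkbp10, a chaperone and prolyl isomerase for procollagen, went from 65.9 ± 3.15 to 75.4 ± 0.861 FPKM (SD, n = 3 each; limma adjusted p = 0.031). P3h4, a partner of collagen lysyl hydroxylation, went from 46.4 ± 3.23 to 53.7 ± 0.676 FPKM (adjusted p = 0.0461). The lysyl hydroxylase gene Plod2 went from 89.1 ± 3.94 to 79.2 ± 1.08 FPKM (adjusted p = 0.0428) and Fkbp14 from 24.2 ± 1.64 to 20.7 ± 0.458 (adjusted p = 0.0479). Named after their values were seen, the collagen chaperone gene Serpinh1 had a mean of 0.452 FPKM and Crtap, of the prolyl 3-hydroxylase complex, 0.0388, both under the minimum, beside 497.4 FPKM for P4hb, the beta subunit of prolyl 4-hydroxylase. Whether the gene models of Serpinh1 and Crtap take up all reads of these genes was not tested.

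Among 8 tested genes for procollagen cleavage and cross-linking, 1 was higher and 7 did not pass. The higher gene was the lysyl oxidase-like gene Loxl1, from 14.9 ± 0.831 to 18.4 ± 0.393 FPKM (log2 change 0.28, limma adjusted p = 0.0205). Loxl3 and the C-proteinase enhancer gene Pcolce, the highest of the list, had log2 changes of -0.03 and 0.12 (adjusted p = 0.543 and 0.239).

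Of 16 tested receptor genes for collagens and laminins, 2 were higher, 4 lower and 10 did not pass, with a median log2 change of -0.089. Sdc1, a heparan sulfate syndecan, went from 91.3 ± 0.960 to 132.3 ± 3.14 FPKM (log2 change 0.53, limma adjusted p = 7.09e-04). Mcam, an adhesion molecule that binds Lama4-containing laminin, went from 50.1 ± 1.35 to 34.5 ± 1.54 FPKM (log2 change -0.52, adjusted p = 0.00244). Laminin-binding integrin subunits differed in direction, with Itga3 from 119.9 ± 3.44 to 137.0 ± 1.76 FPKM (adjusted p = 0.0201) and Itga6 from 126.9 ± 4.13 to 110.7 ± 3.31 (adjusted p = 0.0259).

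Of 6 tested genes for other basement membrane proteins, 1 was higher and 2 were lower, with a median log2 change of -0.062. Sparc, which binds type IV collagen and helps it leave the cell, went from 175.0 ± 3.78 to 128.6 ± 4.88 FPKM (log2 change -0.44, limma adjusted p = 0.00273). Ntn4, a netrin of basement membranes that binds laminin gamma chains, went from 15.1 ± 0.562 to 10.8 ± 0.397 FPKM (log2 change -0.45, adjusted p = 0.00597). The higher gene was Egfl7, with a log2 change of 0.47 (adjusted p = 0.0411), and the fibulin gene Fbln1 stood at 30.1 ± 1.38 and 32.2 ± 0.145 FPKM (adjusted p = 0.18).

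Among 12 tested genes for proteases that act on matrix, 3 were higher and 3 lower, with a median log2 change of -0.034. Adamts1, a protease of matrix proteoglycans, went from 57.4 ± 1.60 to 28.4 ± 0.740 FPKM (log2 change -0.99, limma adjusted p = 3.18e-04). The membrane-bound metalloproteinase gene Mmp15 went from 18.2 ± 0.726 to 24.4 ± 0.335 FPKM (log2 change 0.40, adjusted p = 0.00541). Mmp3, stromelysin, went from 1.26 ± 0.270 to 2.94 ± 0.320 FPKM (adjusted p = 0.0161), and the plasminogen activator gene Plat from 4.42 ± 0.114 to 3.17 ± 0.183 (adjusted p = 0.0259).

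Markers of other cell types moved with the groups in part. The shares of all 12198 tested genes to set beside their counts were 7.14% lower and 7.24% higher. Of 14 Schwann cell and glial markers in the table, 11 were tested, 6 were lower and 1 higher in EN, their summed level was 478.6 to 487.6 FPKM in EC and 421.9 to 454.5 in EN, and Fabp7 was at 0. The 3 highest were S100b, Ngfr and Sox10, with log2 changes of -0.46 (limma adjusted p = 0.00704), 0.19 (0.0325) and 0.03 (0.77). Of 16 fibroblast markers, 5 were tested and none passed, their sum was 236.4 to 238.8 FPKM in EC and 253.5 to 264.4 in EN, the highest were Prrx1, Pdgfra and Twist1, and the defining genes Lum and Dpt were at 0. Of 13 endothelial markers, 4 were tested and 1 was higher (Egfl7), their sum was 10.02 to 12.14 FPKM in EC and 13.3 to 14.1 in EN, the highest were Egfl7, Flt1 and Tie1, and Cldn5, Plvap and Robo4 were at 0. Egfl7, also counted among the partners above, averaged 4.12 ± 0.688 FPKM in EC and 6.09 ± 0.599 in EN. The part of these markers in the collagen and laminin values was not tested.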

How the data were processed

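The authors deposited FPKM for 33350 gene models in 6 libraries. Trizol-extracted RNA went into an Illumina TruSeq RNA kit, per the labels' protocols. HISAT2 2.0.5 and Rnor_6.0 were used, per the submitters' processing notes; the sources used here name no counting tool, annotation release, strand setting or filter. In every library 100% of values came out as whole reads (tolerance 0.01).

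limma 3.58.1 in R 4.3.3 was fitted to log2(FPKM + 1) with a mean-variance trend and group as the only term, for the 12198 genes whose mean reached 1 FPKM, two-sided, with Benjamini-Hochberg adjustment over them and a threshold of 0.05. Log2 changes are on this scale and understate changes of low genes; folds are ratios of mean FPKM. The 95% intervals are per gene and unadjusted. The script was checked on simulated data. Ratios of chains were compared by exact two-sided permutation.

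The members and lists were chosen with earlier results of these data known. Every tested member is named, and those past the threshold and the 12 highest get each library's value. Of each list of partners up to 4 genes past the threshold are named by adjusted p, or the highest others, and of each marker list the 3 highest. Values of some genes are not reported here. Of 98 partner entries 97 matched, and of 60 marker entries 57. Alternatives were pseudocounts of 0.1 and 0.5, no minimum or 5 FPKM, TPM, median centring, quantile normalization, a replicate block, omission of each library, array weights, no variance trend, voom on the reads, removal of the trend with gene length, and protein-coding models only. Outliers were not sought in groups of 3.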

Additional observations from a re-analysis of the deposited data

How the results depend on the processing

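No called member changed sign under any alternative tried. Against 2 members higher and 5 lower in EN, the number higher was 1 with no expression minimum, 1 with the replicate block and 1 with no variance trend. The number lower was 3 on the TPM scale and 3 with no variance trend. It was 4 with no expression minimum, with quantile normalization, with the replicate block and with the length trend removed. The counts rose to 2 higher and 7 lower with array weights, 3 and 6 with voom, and 2 and 6 both at 5 FPKM and with protein-coding models only. With 1 library left out it was 0 to 2 higher and 1 to 5 lower. Against 9 context genes higher and 12 lower, the counts were 5 and 6 with no minimum and 5 and 6 with no variance trend. They were 9 and 9 on the TPM scale and with median centring, and 7 and 10 with the replicate block. Quantile normalization and the minimum of 5 FPKM gave 9 and 11. The counts were 12 and 12 with voom, 10 and 12 with the length trend removed, and 10 and 13 with protein-coding models only. Array weights gave 15 higher and 16 lower. With 1 library left out the counts were 2 to 9 higher and 4 to 11 lower. Fewer libraries or more genes tested enter some of these fits; otherwise the cause was not tested. Deviations of same-numbered libraries from their group means correlated at 0.0884, -0.0948 and -0.0199, and those of differently numbered libraries at -0.111 to 0.134. Such values, from groups of 3, cannot show whether the numbers pair the libraries. With the replicate block, Col5a2 and Nid2 lost their calls (limma adjusted p = 0.064 and 0.0515). The 3 chain ratios kept their direction in each alternative. Members are long, with a median gene length of 5645 bases against 2169 for all genes tested, and removal of the trend with length ended the call of Col5a2 alone. Depth limits the 35 members under 1 FPKM.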
